A study of Mus musculus with 4 samples.

Results

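The collagen genes of the mouse are described here on 4 Affymetrix mouse genome arrays, each hybridised with RNA of mammary fibroblasts of a different genotype. A gene was a member when a probe set (a group of probes for 1 transcript) carried its symbol alone and that symbol was Col, a number, the letter a and a number, with nothing after it. By this rule 42 of the 18194 singly named genes were members, and they held 82 of the 45101 probe sets of the array. The gene IDs of all 42 have the same symbol in the RefSeq annotation of GRCm38.p6. Of a gene's probe sets, the one with the highest mean of the 4 values was used. The classes were fixed by collagen type: 11 fibrillar genes, 6 basement membrane genes (type IV), 9 genes of fibril-associated collagens (FACIT) and 16 others.

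The arrays compared fibroblasts with and without the transcription factor *Ets2*, in mammary glands with and without the *ErbB2* oncogene in the epithelium. *Ets2* null fibroblasts of the oncogene background came from ErbB2;Fsp-cre;Ets2db/loxP mice and their counterparts with *Ets2* from ErbB2;Ets2db/loxP mice, here called ErbB2 fibroblasts. Normal *Ets2* null fibroblasts came from FspCre;Ets2db/loxP mice and normal fibroblasts with *Ets2* from Ets2db/loxP mice. All mice were FVB/N, 16 weeks old and female, and the *ErbB2* mice were taken before tumors could be felt. All 4 groups carried the Ets2db allele, a mutant allele present in every cell, over a floxed allele. Fibroblasts "with *Ets2*" therefore had the floxed copy alone. Cre was driven by the promoter of fibroblast-specific protein, which is not active in fibroblasts alone in every setting, and the *ErbB2* transgene by the MMTV promoter. The cells were cultured and harvested at the second passage, so they were measured away from the epithelium. The number of mice behind each RNA sample is not known here.

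Collagens are matrix proteins whose chains wind around each other in a helix of glycine-rich repeats. Fibrillar collagens are secreted as procollagens, trimmed and cross-linked into the fibrils that give connective tissue its strength, and fibroblasts are their main source. Type IV collagen forms the sheet-like network of basement membranes under epithelium and around vessels, FACIT collagens decorate fibrils, and the remaining types form beaded filaments, hexagonal networks, anchoring fibrils or membrane-spanning proteins.

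The deposited values are log2 expression values from RMA, which corrects the background, gives the arrays nearly the same distribution and summarises the probes of each set. Each genotype has 1 array, so spread between replicates could not be measured, no difference was tested, and each one describes these arrays. The number of arrays limits the precision. A difference over 1 on the log2 scale (2-fold) in either direction was called past 2-fold. Log2 values under 6 were not shown to be above background: of 43 olfactory receptor genes, which fibroblasts are not known to use, 1 reached 6 on each array. A difference that starts or ends under 6 is not exact. The arrays correlated at Pearson's r of 0.988 to 0.993 over all probe sets. *Ets2* itself had log2 values of 8.31 in *Ets2* null and 8.34 in *Ets2* ErbB2 fibroblasts, and of 8.35 in *Ets2* null and 8.14 in *Ets2* normal fibroblasts. The sources do not place its probes inside or outside the deleted exons, so this value does not check the genotype labels. In a mixed culture, fewer cells of a type and less RNA per cell cannot be told apart.

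The cells had the markers of their label, and markers of other cell types were also present and differed between arrays. Of 8 fibroblast markers all were at log2 6 or more on at least 1 array and 7 on all 4 (*Fap* was at 5.85 in normal *Ets2* null fibroblasts), and *Vim*, vimentin, was at 14.05 and 13.97 in *Ets2* null and *Ets2* ErbB2 fibroblasts and at 14.06 and 14.05 in *Ets2* null and *Ets2* normal fibroblasts. Marker lists were summed on the linear scale and are given for ErbB2 *Ets2* null, ErbB2 with *Ets2*, normal *Ets2* null and normal with *Ets2*, in that order. The 7 luminal epithelial markers summed to 629, 2073, 2489 and 959, and the 5 basal epithelial markers to 158, 569, 795 and 194. Both epithelial sums were thus high on the ErbB2 array with *Ets2* and the normal array without it. The 9 macrophage and myeloid markers summed to 6215, 14995, 7039 and 8238. Of them, 6 were past 2-fold lower in *Ets2* null than in *Ets2* ErbB2 fibroblasts, where 1.74% of all genes were. The 7 endothelial markers summed to 396, 591, 468 and 762, lower without *Ets2* in both backgrounds. The 8 smooth muscle and pericyte markers had median differences of -0.51 in ErbB2 and 0.06 in normal fibroblasts (*Ets2* null minus *Ets2*), and the 5 adipocyte markers of -0.24 and 0.19. Of 5 cartilage and bone markers, 4 were under 6 on all arrays. The part of these cell types in the collagen results was not tested.

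Of the 42 collagen genes, 26 were at log2 6 or more on at least 1 array and 22 on all 4. The remaining 16 were under 6 on every array, between 2.74 and 5.88: *Col4a3*, *Col4a4*, *Col4a6*, *Col6a4*, *Col6a5*, *Col8a2*, *Col9a1*, *Col9a2*, *Col10a1*, *Col11a2*, *Col13a1*, *Col17a1*, *Col19a1*, *Col23a1*, *Col24a1* and *Col26a1*. Several of these are known from other tissues, such as *Col10a1* from growth cartilage, *Col4a3* and *Col4a4* from kidney and *Col17a1* from the hemidesmosomes of epithelium. The 26 were 9 fibrillar, 3 basement membrane, 6 FACIT and 8 other genes.

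**Figure D1:**
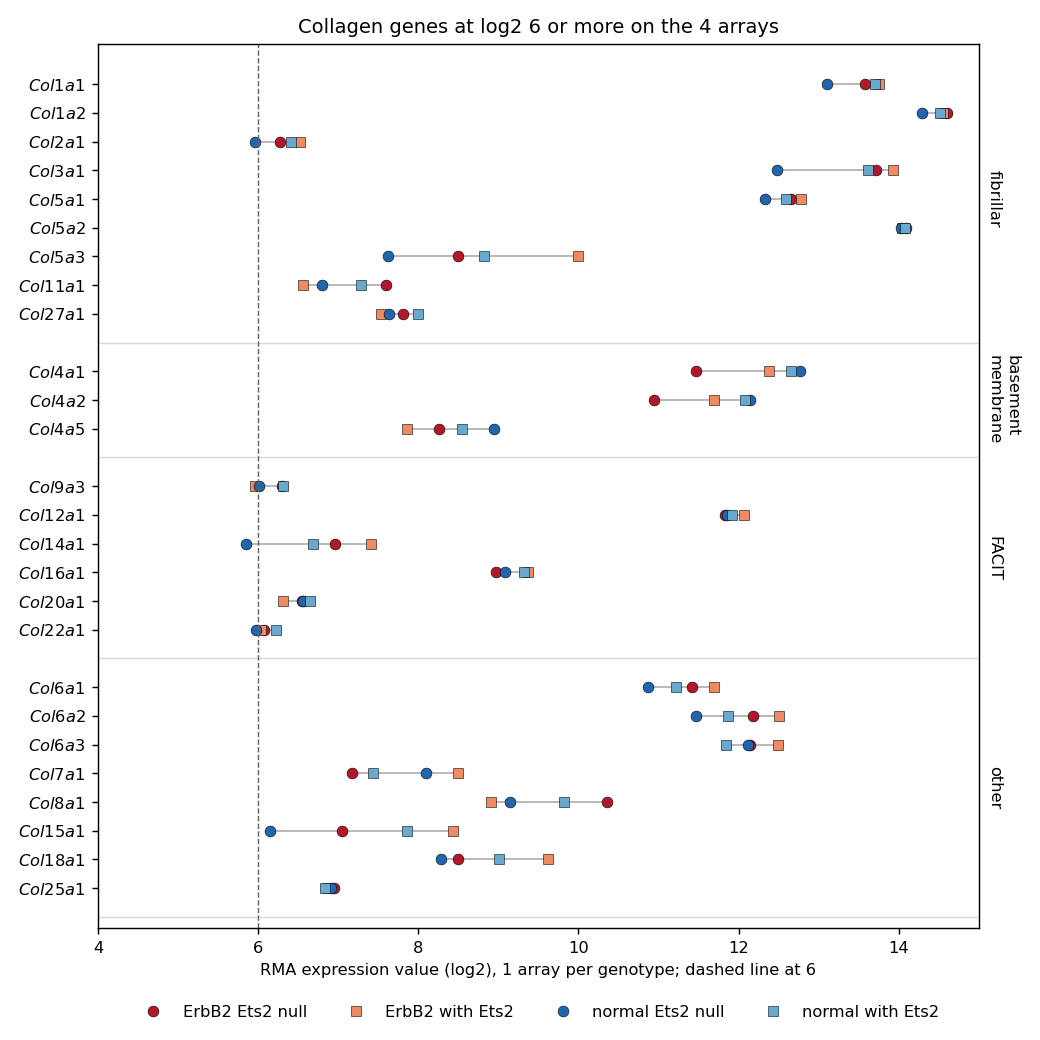
RMA log2 expression value of the 26 collagen genes at log2 6 or more on at least 1 array, by class, with 1 point per array (ErbB2 *Ets2* null, ErbB2 with *Ets2*, normal *Ets2* null, normal with *Ets2*) and a line joining the lowest and the highest. Normal *Ets2* null fibroblasts have the lowest point of 7 of the 9 fibrillar genes and the highest point of all 3 type IV genes, while ErbB2 fibroblasts with *Ets2* have the highest point of 6 of the 8 other genes; brightness depends on the probes, so levels are to be read within a gene.

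The share of collagen genes past 2-fold was above that of all genes in each of the 4 comparisons. Without *Ets2*, 7 of the 42 were past 2-fold in ErbB2 fibroblasts, 3 higher (*Col8a1*, *Col11a1* and *Col24a1*) and 4 lower (*Col5a3*, *Col7a1*, *Col15a1* and *Col18a1*). That is 16.7% of the members, against 2.08% of all genes (0.341% higher and 1.74% lower). In normal fibroblasts 4 of the 42 were past 2-fold without *Ets2*, 1 higher (*Col17a1*, under log2 6 throughout) and 3 lower (*Col3a1*, *Col5a3* and *Col15a1*), which is 9.52%, against 0.978% of all genes (0.621% higher and 0.357% lower). Among genes with a value of 6 or more the shares were 6 of 26 (23.1%) in ErbB2 fibroblasts, against 3.28% of all such genes, and 3 of 26 (11.5%) in normal fibroblasts, against 1.47%. *Col5a3* and *Col15a1* were past 2-fold lower in both Ets2 comparisons, though *Col5a3* was short of 2-fold in both with the mean of its probe sets. No collagen gene passed 2-fold in opposite directions in them. The shares of all genes that did either were not counted, so the overlap is listed only. No collagen gene passed 4-fold in any comparison, the widest difference being -1.70. Over all genes 0.357% did so without *Ets2* in ErbB2 and 0.104% in normal fibroblasts, and 0.121% and 0.291% for ErbB2 minus normal with and without *Ets2*. At these shares a count of 0 of 42 is what the background gives.

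The median over the collagen genes lay below 0 in both Ets2 comparisons. Over all 42 the median difference without *Ets2* was -0.07 in ErbB2 and -0.08 in normal fibroblasts, against 0.04 and -0.0026 over all genes. Over the 26 genes at 6 or more it was -0.23 in ErbB2 and -0.29 in normal fibroblasts, against -0.01 and -0.02 over all such genes.

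**Figure D2:**
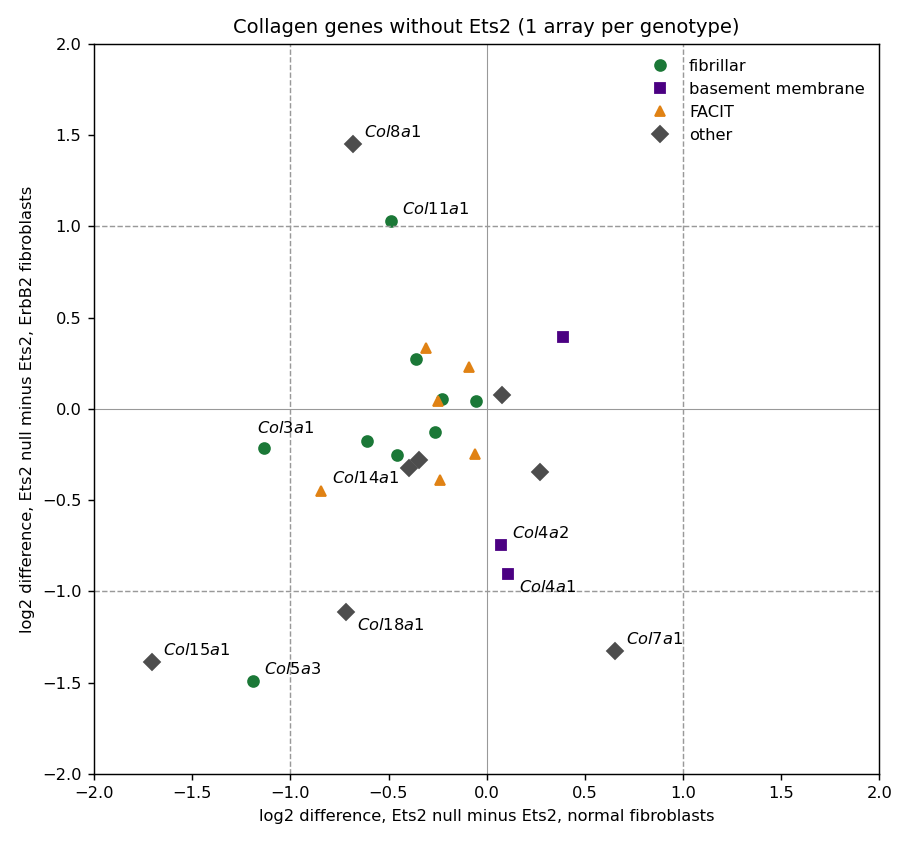
Log2 difference without *Ets2* (*Ets2* null minus *Ets2*) in ErbB2 fibroblasts (vertical axis) and in normal fibroblasts (horizontal axis) for the 26 collagen genes at log2 6 or more, 1 point per gene, symbol by class, dashed lines at 2-fold. *Col15a1* and *Col5a3* lie past 2-fold lower on both axes, *Col8a1* is at 1.45 and -0.68, *Col7a1* at -1.33 and 0.65, and *Col4a1* and *Col4a2* lie low on the vertical axis and near 0 on the horizontal one.

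For the sequence context, promoter windows around the annotated start, mostly upstream of it (RefSeq, GRCm38.p6), were found for 33 of the 42 genes, 36 windows of 300 bases in all. They were searched on both strands for CCGGAA and AGGAAG (matched by factors of the ETS family, to which Ets2 belongs), GGGCGG (the GC box), CCAAT and TATAAA. The letters CCGGAA were in 0 of the 36 collagen windows and in 14.9% of all 32851 promoters in the table. AGGAAG was in 14 windows (38.9%), against 35.4% of all promoters, GGGCGG in 22 (61.1%), against 35.7%, CCAAT in 13 (36.1%), against 37.4%, and TATAAA in 5 (13.9%), against 13.6%. No motif contains another, and neighbouring matches can overlap. A match is a description of the letters and not a binding site, and no match says only that these letters are not in this window.

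Among fibrillar collagens, the main chains, on the probe sets used, differed little with *Ets2* in ErbB2 fibroblasts and were lower without it in normal fibroblasts. Over all 11 genes, 9 were below 0 in normal fibroblasts with a median of -0.36, and the 2 above 0 (*Col11a2* and *Col24a1*) were under log2 6. All 9 fibrillar genes at 6 or more were below 0, between -1.19 and -0.05 with a median of -0.46, and were so under each of the 4 scalings tried, while 54.3% of all such genes were below 0. In ErbB2 fibroblasts 6 of the 11 were above 0 and 5 below, with a median of 0.04.

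*Col1a1* and *Col1a2* encode the chains of type I collagen, the principal collagen of fibroblasts. *Col1a1* had log2 values of 13.58 in *Ets2* null and 13.76 in *Ets2* ErbB2 fibroblasts, and of 13.10 in *Ets2* null and 13.71 in *Ets2* normal fibroblasts. Its lowest value was that of normal *Ets2* null fibroblasts, 0.61 below normal fibroblasts with *Ets2*, and the other 3 arrays lay within 0.17 of each other. *Col1a2* was at 14.61 and 14.55 in *Ets2* null and *Ets2* ErbB2 fibroblasts, and at 14.29 and 14.52 in *Ets2* null and *Ets2* normal fibroblasts. These values lie at the top of the scale, where the highest value of any array was 14.56 to 14.61. On its dimmer probe sets the difference in normal fibroblasts was -0.49 and -0.68, against -0.23 on the brightest.

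*Col3a1*, the chain of type III collagen, which forms fine fibrils with type I, was past 2-fold lower without *Ets2* in normal fibroblasts and differed little in ErbB2 fibroblasts. Its log2 values were 13.72 in *Ets2* null and 13.93 in *Ets2* ErbB2 fibroblasts (difference -0.21), and 12.48 in *Ets2* null and 13.62 in *Ets2* normal fibroblasts (difference -1.13, 2.2-fold lower). Normal *Ets2* null fibroblasts stood apart from the other 3 arrays. The second probe set gave 10.45 and 10.12 in *Ets2* null and *Ets2* ErbB2 fibroblasts, and 8.30 and 9.91 in *Ets2* null and *Ets2* normal fibroblasts. Its difference was again negative in normal fibroblasts (-1.62), and in ErbB2 fibroblasts it was 0.33, of the opposite sign to the first probe set.

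*Col5a3* was lower without *Ets2* in both backgrounds. It encodes a minor chain of type V collagen, which is built into type I fibrils. Its log2 values were 8.50 in *Ets2* null and 9.99 in *Ets2* ErbB2 fibroblasts, a difference of -1.49 or 2.82-fold. In normal fibroblasts they were 7.62 in *Ets2* null and 8.82 in *Ets2* cells, a difference of -1.19 or 2.28-fold. ErbB2 fibroblasts were above normal ones at either *Ets2* status (by 1.18 with *Ets2* and 0.87 without). Its second probe set stayed between 5.04 and 5.30, not shown above background, so these values rest on 1 probe set: with the mean of both, the differences were -0.84 in ErbB2 and -0.72 in normal fibroblasts, neither past 2-fold. The major type V chains moved less: *Col5a1* was at 12.66 and 12.78 in *Ets2* null and *Ets2* ErbB2 fibroblasts and at 12.32 and 12.59 in *Ets2* null and *Ets2* normal fibroblasts. *Col5a2* was at 14.09 and 14.05 in the ErbB2 pair, *Ets2* null first, and at 14.03 and 14.08 in the normal pair. These values lie near the top of the scale. Its dimmer probe set gave -0.53 in ErbB2 and -0.35 in normal fibroblasts. That was the widest spread in the ErbB2 comparison (0.57) among collagen genes with several bright probe sets. The difference of *Col5a3* minus that of *Col5a1* was -1.37 in ErbB2 and -0.93 in normal fibroblasts. The promoter window of *Col5a3* (chr9:20815018-20815317, minus strand) is shown because this gene was lower without *Ets2* in both backgrounds. Capitals mark its matches of GGGCGG and CCAAT on either strand, and neither ETS motif was in it.
Col5a3: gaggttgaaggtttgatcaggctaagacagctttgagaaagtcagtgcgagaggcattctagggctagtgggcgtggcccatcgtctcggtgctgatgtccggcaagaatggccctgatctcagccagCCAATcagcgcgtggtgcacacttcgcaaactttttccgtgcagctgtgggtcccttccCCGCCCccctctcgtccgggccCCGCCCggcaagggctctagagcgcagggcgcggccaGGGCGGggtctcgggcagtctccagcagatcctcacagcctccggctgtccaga

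*Col11a1*, a chain of type XI collagen, known from cartilage and from activated stroma of tumors, went the other way in ErbB2 fibroblasts. Its log2 values were 7.59 in *Ets2* null and 6.57 in *Ets2* ErbB2 fibroblasts (difference 1.03, 2.04-fold higher), and 6.79 in *Ets2* null and 7.28 in *Ets2* normal fibroblasts (difference -0.49). The second probe set was under 6 on all arrays, with differences of 0.80 and -0.48. *Col24a1*, a fibrillar gene described from developing bone, was past 2-fold higher without *Ets2* in ErbB2 fibroblasts at 3.81 against 2.81, both under 6. *Col2a1* and *Col27a1*, both known from cartilage, differed by at most 0.47 in any comparison.

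**Figure D3:**
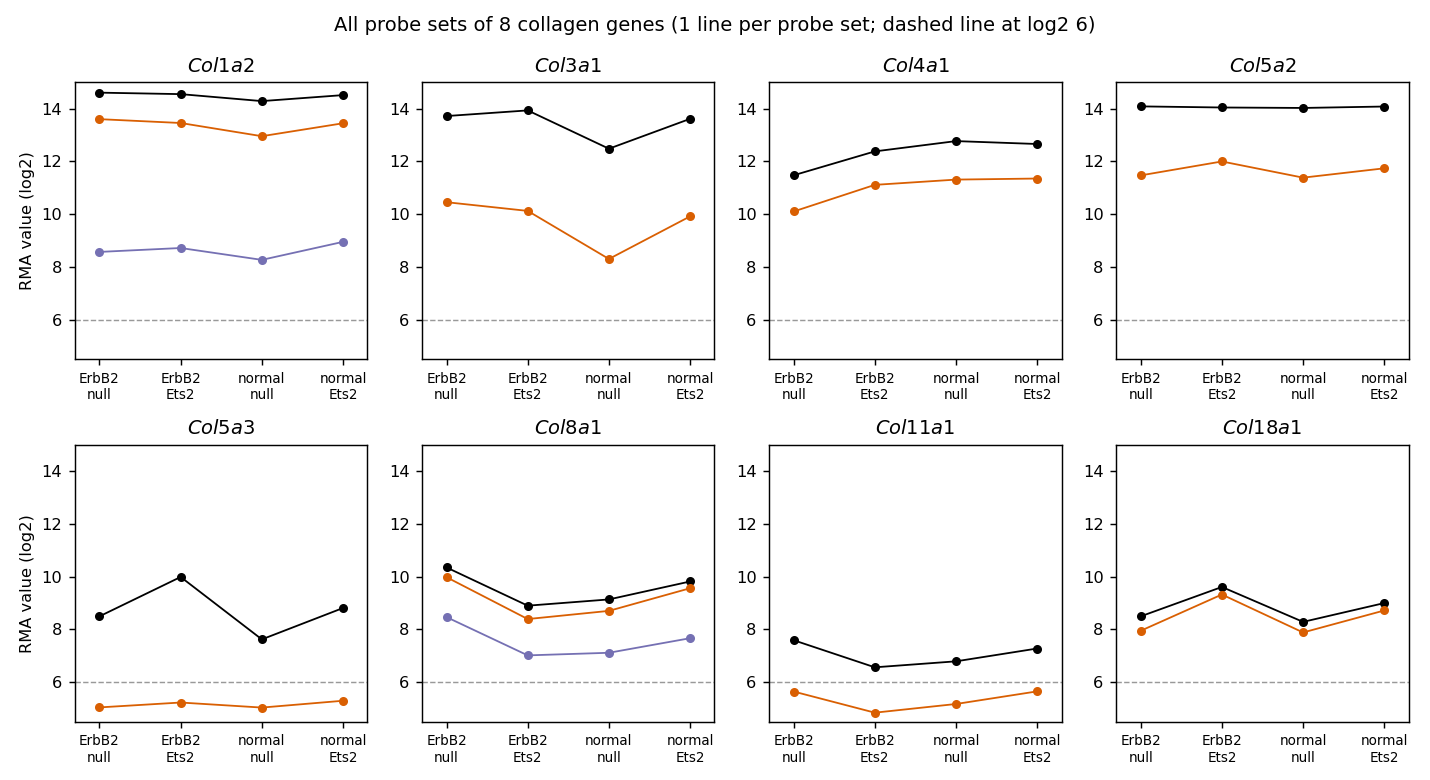
RMA log2 values on every probe set of *Col1a2*, *Col3a1*, *Col4a1*, *Col5a2*, *Col5a3*, *Col8a1*, *Col11a1* and *Col18a1*, 1 line per probe set over the 4 arrays, dashed line at 6. The lines run alike for *Col8a1*, *Col4a1* and *Col18a1*, while *Col5a3* changes on 1 probe set and its other lies between 5.04 and 5.30.

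The main type IV chains were lower without *Ets2* in ErbB2 fibroblasts, by less than 2-fold, and differed by 0.11 or less in normal fibroblasts. *Col4a1* and *Col4a2* encode the chains found in nearly all basement membranes and are divergent neighbours on chromosome 8, with annotated starts at 11312826 (minus strand) and 11312805 (plus strand) in GRCm38.p6. Their promoter windows, *Col4a1* at chr8:11312777-11313076 and *Col4a2* at chr8:11312555-11312854, overlap by 78 bases. They are shown because the pair moved together; capitals mark the 78 bases they share, which are the complement of each other and hold the first transcribed bases of both genes.
Col4a1: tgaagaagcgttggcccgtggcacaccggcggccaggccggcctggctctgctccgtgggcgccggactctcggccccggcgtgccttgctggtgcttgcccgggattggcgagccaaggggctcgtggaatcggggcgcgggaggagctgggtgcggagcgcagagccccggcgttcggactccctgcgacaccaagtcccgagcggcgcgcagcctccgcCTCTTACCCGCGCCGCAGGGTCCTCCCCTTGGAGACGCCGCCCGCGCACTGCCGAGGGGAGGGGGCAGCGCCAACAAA
Col4a2: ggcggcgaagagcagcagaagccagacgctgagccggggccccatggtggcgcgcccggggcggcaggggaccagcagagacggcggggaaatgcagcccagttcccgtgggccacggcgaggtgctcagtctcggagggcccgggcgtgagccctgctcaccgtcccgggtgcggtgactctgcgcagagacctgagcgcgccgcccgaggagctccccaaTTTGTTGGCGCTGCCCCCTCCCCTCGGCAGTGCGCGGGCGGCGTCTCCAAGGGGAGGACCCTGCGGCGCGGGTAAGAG

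*Col4a1* had log2 values of 11.47 in *Ets2* null and 12.38 in *Ets2* ErbB2 fibroblasts (difference -0.91), and of 12.77 in *Ets2* null and 12.66 in *Ets2* normal fibroblasts (difference 0.11). *Col4a2* was at 10.95 and 11.69 in *Ets2* null and *Ets2* ErbB2 fibroblasts (-0.75), and at 12.15 and 12.08 in *Ets2* null and *Ets2* normal fibroblasts (0.07). On both genes ErbB2 *Ets2* null fibroblasts were the lowest of the 4 arrays and normal *Ets2* null fibroblasts the highest. The differences of the pair lay within 0.16 of each other in all 4 comparisons. The second probe set of *Col4a1* gave -1.01 in ErbB2 fibroblasts, past 2-fold, and -0.04 in normal fibroblasts. *Col4a5*, whose product joins other chains in specialised basement membranes, ran otherwise: it was at 8.26 and 7.86 in *Ets2* null and *Ets2* ErbB2 fibroblasts (0.40), and at 8.94 and 8.55 in *Ets2* null and *Ets2* normal fibroblasts (0.39). Both of its probe sets were higher without *Ets2* in both backgrounds. *Col4a6*, which starts 1343 bases from *Col4a5* on the opposite strand of chromosome X, was between 5.30 and 5.73, and *Col4a3* and *Col4a4* were also under 6 on all arrays. The class median over all 6 genes was -0.08 in ErbB2 and 0.10 in normal fibroblasts, and over the 3 genes at 6 or more -0.75 and 0.11.

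The differences of the 9 FACIT collagens without *Ets2* lay between -0.45 and 0.33 in ErbB2 fibroblasts. In normal fibroblasts 8 of the 9 were below 0, with a median of -0.24. All 6 FACIT genes at 6 or more on at least 1 array were below 0 there, against 54.3% of all such genes. With the mean of all probe sets of a gene the FACIT median was -0.036. The count past 2-fold was 0 of 9 in both, where 2.08% (ErbB2) and 0.978% (normal) of all genes were past it, so that a count of 0 is what the background gives. *Col12a1*, found on fibrils of dense connective tissue, was at 11.83 and 12.07 in *Ets2* null and *Ets2* ErbB2 fibroblasts, and at 11.86 and 11.92 in *Ets2* null and *Ets2* normal fibroblasts. Its second bright probe set differed by -0.06 in ErbB2 fibroblasts. In normal fibroblasts it differed by 0.30, of the opposite sign to the first (-0.06). *Col16a1*, a FACIT collagen of skin and other connective tissue, was at 8.97 and 9.36 in the ErbB2 pair, *Ets2* null first, and at 9.08 and 9.32 in the normal pair. *Col14a1*, a fibril-associated collagen of soft tissue, varied most within the class. Its log2 values were 6.96 in *Ets2* null and 7.41 in *Ets2* ErbB2 fibroblasts (difference -0.45), and 5.84 in *Ets2* null, which is under 6, and 6.69 in *Ets2* normal fibroblasts (difference -0.84). The other probe sets of *Col14a1* were under 6 on all arrays. With the mean of all its probe sets the differences were -0.04 in ErbB2 and -0.41 in normal fibroblasts. *Col9a3*, *Col20a1* and *Col22a1* were between 5.96 and 6.65 and differed by at most 0.36.

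**Figure D4:**
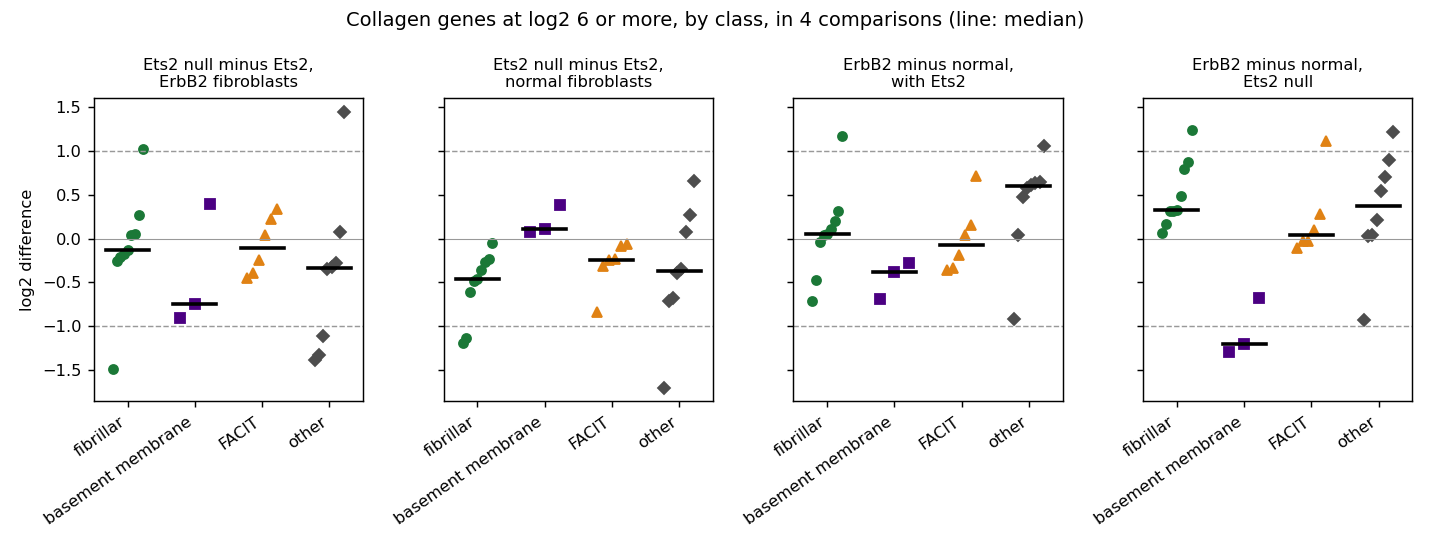
Log2 difference of each collagen gene at log2 6 or more, by class, in the 4 comparisons, with dashed lines at 2-fold and a bar at the class median. On the probe sets used, all 9 fibrillar and all 6 FACIT genes lie below 0 without *Ets2* in normal fibroblasts, and the 3 type IV genes above it. Second probe sets at 6 or more, not drawn, had the other sign there for *Col12a1* (0.30) and *Col4a1* (-0.04). Between ErbB2 and normal *Ets2* null fibroblasts the fibrillar genes lie above 0 and the type IV genes below it. The panels share arrays in pairs, so they are not independent.

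Of the 8 other collagens at log2 6 or more, 4 were past 2-fold without *Ets2* in ErbB2 fibroblasts, against 3.28% of all such genes. In normal fibroblasts 1 was, against 1.47%, and *Col17a1*, under 6 throughout, was also past 2-fold there. *Col15a1* encodes a collagen of the zone between basement membrane and stroma, related to *Col18a1*, whose product is the source of endostatin. *Col15a1* had log2 values of 7.05 in *Ets2* null and 8.44 in *Ets2* ErbB2 fibroblasts, a difference of -1.39 or 2.62-fold. In normal fibroblasts it was at 6.15 in *Ets2* null and 7.86 in *Ets2* cells, a difference of -1.70 or 3.26-fold, the widest of any collagen gene. Both *Ets2* null arrays lay below both arrays with *Ets2*, and the gene has 1 probe set. *Col18a1* was at 8.50 in *Ets2* null and 9.61 in *Ets2* ErbB2 fibroblasts (difference -1.11, 2.17-fold), and at 8.29 in *Ets2* null and 9.0 in *Ets2* normal fibroblasts (difference -0.71). It too was lower on both *Ets2* null arrays than on both arrays with *Ets2*, and its second probe set gave -1.38 and -0.83. Endothelial cells also make both collagens: the 7 endothelial markers had median differences of -0.48 in ErbB2 and -0.57 in normal fibroblasts. Among these markers, of which 2 were under 6 on all arrays, 7 of 7 and 6 of 7 were below 0, against 51.9% and 54.3% of all genes at 6 or more. Of them *Emcn*, endomucin, was at 5.99 and 7.01 in *Ets2* null and *Ets2* ErbB2 fibroblasts and at 6.67 and 7.85 in *Ets2* null and *Ets2* normal fibroblasts, and *Tie1* was under 6 on all arrays. The part of endothelial cells in these differences was not tested.

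*Col8a1* was higher without *Ets2* in ErbB2 fibroblasts and lower without it in normal fibroblasts. It encodes a chain of type VIII collagen, a short network-forming collagen of vessel walls and of remodelled tissue. Its log2 values were 10.35 in *Ets2* null and 8.90 in *Ets2* ErbB2 fibroblasts (difference 1.45, 2.73-fold), and 9.14 in *Ets2* null and 9.82 in *Ets2* normal fibroblasts (difference -0.68). ErbB2 *Ets2* null fibroblasts had the highest and ErbB2 fibroblasts with *Ets2* the lowest value. All 3 probe sets gave this pattern, with differences of 1.45 to 1.59 in ErbB2 fibroblasts and of -0.86 to -0.55 in normal fibroblasts. *Col8a2*, the other chain of type VIII, was under 6 on all arrays.

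*Col7a1*, which encodes the anchoring fibrils that tie epithelial basement membrane to the stroma, ran in the opposite sense. Its log2 values were 7.17 in *Ets2* null and 8.49 in *Ets2* ErbB2 fibroblasts (difference -1.33, 2.51-fold), and 8.09 in *Ets2* null and 7.44 in *Ets2* normal fibroblasts (difference 0.65). The arrays high in *Col7a1* were those high in epithelial markers. *Col17a1*, an epithelial collagen, was likewise highest on those arrays, at 3.09 and 3.67 in *Ets2* null and *Ets2* ErbB2 fibroblasts and at 4.39 and 3.38 in *Ets2* null and *Ets2* normal fibroblasts, all under 6. Of the 7 luminal markers, 6 were past 2-fold lower without *Ets2* in ErbB2 fibroblasts, against 1.74% of all genes. In normal fibroblasts 5 were past 2-fold higher, against 0.621% of all genes. The luminal medians were -2.23 and 1.38. Of the 5 basal markers, 3 were past 2-fold lower in ErbB2 and 4 past 2-fold higher in normal fibroblasts. *Trp63*, under 6 on all arrays, went the other way (0.32 and -0.27). *Krt14*, a basal keratin, was at 4.93 and 8.26 in *Ets2* null and *Ets2* ErbB2 fibroblasts and at 8.27 and 5.54 in *Ets2* null and *Ets2* normal fibroblasts. The luminal *Krt19* was higher in normal fibroblasts with *Ets2* (8.41) than in ErbB2 fibroblasts with *Ets2* (7.96), unlike the sums. *Epcam* differed between its probe sets. The one with the highest mean, used in the sums and counts, was at 8.10 and 8.32 in the ErbB2 pair, *Ets2* null first, and at 7.98 and 8.29 in the normal pair. The other followed the order of the sums, at 5.63 and 8.48 in the ErbB2 pair (-2.85) and at 7.83 and 5.38 in the normal pair (2.45). *Cdh1* was under 6 on all arrays. The part of epithelial cells in the *Col7a1* differences was not tested.

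Type VI collagen forms beaded filaments around cells. *Col6a1* was at 11.42 and 11.70 in *Ets2* null and *Ets2* ErbB2 fibroblasts, and at 10.87 and 11.22 in *Ets2* null and *Ets2* normal fibroblasts. *Col6a2* was at 12.18 and 12.50 in the ErbB2 pair, *Ets2* null first, and at 11.47 and 11.87 in the normal pair. Both were lower without *Ets2* in both backgrounds, with differences of -0.40 to -0.28, and their differences lay within 0.16 of each other in all 4 comparisons. *Col6a3* was at 12.15 and 12.50 in the ErbB2 pair and at 12.12 and 11.85 in the normal pair, *Ets2* null first in each, so that in normal fibroblasts its difference (0.27) exceeded that of *Col6a1* by 0.62. *Col25a1*, a membrane collagen known from neurons, differed by at most 0.08.

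The promoter windows of the 4 other collagens past 2-fold at log2 6 or more in an Ets2 comparison follow. Those of *Col8a1* (chr16:57754688-57754987, minus strand), *Col15a1* (chr4:47207762-47208061, plus strand) and *Col7a1* (chr9:108953336-108953635, plus strand) held neither ETS motif. *Col18a1* has a pair of windows, from different starts, of which that at chr10:77166481-77166780 (minus strand) held neither and that at chr10:77113656-77113955 (minus strand) held AGGAAG at 1 position. Elsewhere among the collagens past 2-fold in an Ets2 comparison, the windows of *Col3a1*, *Col5a3*, *Col11a1* and *Col17a1* held neither ETS motif and that of *Col24a1* held AGGAAG at 2 positions; *Col6a3*, not past 2-fold, held it at 3. Capitals mark matches of any of the 5 motifs on either strand, and *Col15a1* has none.
Col8a1: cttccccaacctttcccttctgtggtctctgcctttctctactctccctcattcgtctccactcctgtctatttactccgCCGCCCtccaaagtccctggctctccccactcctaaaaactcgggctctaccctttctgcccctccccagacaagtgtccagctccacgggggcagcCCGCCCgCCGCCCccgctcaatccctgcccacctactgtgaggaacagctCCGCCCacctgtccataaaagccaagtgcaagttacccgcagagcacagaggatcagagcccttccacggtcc
Col15a1: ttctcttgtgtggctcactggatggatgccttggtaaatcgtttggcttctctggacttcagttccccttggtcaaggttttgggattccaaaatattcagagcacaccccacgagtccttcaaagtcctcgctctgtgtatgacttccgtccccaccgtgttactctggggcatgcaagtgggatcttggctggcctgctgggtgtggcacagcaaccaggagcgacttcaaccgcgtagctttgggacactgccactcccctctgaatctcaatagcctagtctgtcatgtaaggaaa
Col7a1: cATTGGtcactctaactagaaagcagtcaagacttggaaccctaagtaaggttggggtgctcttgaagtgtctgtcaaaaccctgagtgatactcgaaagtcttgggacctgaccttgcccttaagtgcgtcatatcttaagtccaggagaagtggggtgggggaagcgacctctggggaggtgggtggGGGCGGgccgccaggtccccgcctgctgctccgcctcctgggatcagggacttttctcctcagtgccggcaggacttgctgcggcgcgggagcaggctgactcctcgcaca
Col18a1, chr10:77166481-77166780: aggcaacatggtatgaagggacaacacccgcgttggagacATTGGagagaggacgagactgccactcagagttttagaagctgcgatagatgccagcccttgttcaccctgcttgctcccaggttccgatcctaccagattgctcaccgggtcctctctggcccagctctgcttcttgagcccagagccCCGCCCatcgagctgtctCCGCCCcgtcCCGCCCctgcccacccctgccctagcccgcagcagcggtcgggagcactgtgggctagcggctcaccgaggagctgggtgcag
Col18a1, chr10:77113656-77113955: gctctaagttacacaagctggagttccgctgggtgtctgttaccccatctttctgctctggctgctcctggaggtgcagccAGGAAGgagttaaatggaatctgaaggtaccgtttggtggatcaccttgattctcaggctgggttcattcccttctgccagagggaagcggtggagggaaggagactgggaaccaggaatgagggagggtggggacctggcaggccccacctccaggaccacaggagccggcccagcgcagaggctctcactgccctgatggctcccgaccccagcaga

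Compared by oncogene, more collagen genes passed 2-fold between the *Ets2* null arrays than between the arrays with *Ets2*, as did genes at large. With *Ets2* present, 2 of the 42 (*Col5a3* and *Col7a1*) were past 2-fold higher in ErbB2 than in normal fibroblasts and 0 lower, 4.76% against 1.0% of all genes (0.830% higher and 0.170% lower). Without *Ets2*, 3 were past 2-fold higher (*Col3a1*, *Col8a1* and *Col14a1*) and 3 lower (*Col4a1*, *Col4a2* and *Col17a1*), 14.3% against 2.06% of all genes (0.544% higher and 1.51% lower). Among genes with a value of 6 or more the shares were 2 of 26 (7.69%) with *Ets2*, against 1.56% of all such genes, and 5 of 26 (19.2%) without it, against 3.14%. With the mean of all probe sets, *Col5a3* with *Ets2* (0.56) and *Col14a1* without it (0.68) were short of 2-fold. These comparisons reuse the arrays of the Ets2 comparisons, so their values restate the levels above in another pairing, and no relation between them and the Ets2 comparisons is read. Among genes at 6 or more, ErbB2 *Ets2* null fibroblasts were above normal *Ets2* null fibroblasts in 9 of 9 fibrillar genes, with a median of 0.33, and below them in 3 of 3 type IV genes, with a median of -1.20. Of all genes at 6 or more, 54.6% were above 0 in this comparison. *Col3a1* differed by 1.24 (2.36-fold) and *Col14a1* by 1.12, and *Col4a1* by -1.30 (2.46-fold) and *Col4a2* by -1.20 (2.30-fold). With *Ets2* present, 7 of the 8 other collagens at 6 or more were higher in ErbB2 than in normal fibroblasts, against 50.6% of all such genes. The class median was 0.60, and *Col8a1* was the exception at -0.92. *Col6a1*, *Col6a2* and *Col6a3* were 0.48, 0.63 and 0.65 higher in ErbB2 fibroblasts, all short of 2-fold.

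Genes just inside and outside the 2-fold limit show how far the counts depend on it. In ErbB2 fibroblasts without *Ets2*, *Col24a1* at 1.01 and *Col11a1* at 1.03 were just inside and *Col4a1* at -0.91 just outside. In normal fibroblasts *Col17a1* at 1.01 and *Col3a1* at -1.13 were just inside and *Col14a1* at -0.84 just outside. At a limit of 1.5-fold, 4 collagen genes were higher and 6 lower without *Ets2* in ErbB2 fibroblasts, against 2.84% and 5.64% of all genes, and 3 higher and 7 lower in normal fibroblasts, against 2.31% and 1.87%. For ErbB2 minus normal they were 7 higher and 3 lower with *Ets2*, against 2.91% and 1.31% of all genes, and 8 higher and 5 lower without it, against 2.09% and 3.87%. In 12 genes several probe sets reached 6 on at least 1 array. These had the same sign in 8 genes for the Ets2 comparison in ErbB2 fibroblasts and in 10 in normal fibroblasts.

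Genes that make, bind and remove collagen were read in 7 lists. As background for each list, 2.08% of all genes were past 2-fold without *Ets2* in ErbB2 fibroblasts (0.341% higher and 1.74% lower). In normal fibroblasts the share was 0.978% (0.621% higher and 0.357% lower). Genes of collagen folding and modification mostly lay below 0 without *Ets2*, with small differences. Of the 17 measured genes 12 were below 0 in ErbB2 fibroblasts (median -0.12) and 15 in normal fibroblasts (median -0.21). Of all genes at 6 or more, 51.9% and 54.3% were below 0, while 1 of the 17 was under 6 on all arrays. *P4hb*, a subunit of the prolyl hydroxylase that stabilises the helix, was at 13.45 and 13.48 in *Ets2* null and *Ets2* ErbB2 fibroblasts and at 13.35 and 13.45 in *Ets2* null and *Ets2* normal fibroblasts. *Serpinh1*, the collagen chaperone HSP47, was at 13.03 and 13.14 in the ErbB2 pair, *Ets2* null first, and at 12.89 and 13.16 in the normal pair. *P3h2*, a prolyl hydroxylase that acts on type IV collagen among others, was the 1 gene of the list past 2-fold, at 5.62 in *Ets2* null and 6.95 in *Ets2* ErbB2 fibroblasts, and at 5.77 in *Ets2* null and 6.56 in *Ets2* normal fibroblasts.

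Of the 6 procollagen processing genes, *Tll1*, a protease of the family that trims procollagen, was past 2-fold lower without *Ets2* in ErbB2 fibroblasts. It was at 4.36 in *Ets2* null and 6.33 in *Ets2* ErbB2 fibroblasts, and at 5.99 in *Ets2* null and 5.80 in *Ets2* normal fibroblasts. *Pcolce*, which enhances that trimming, differed by -0.25 in ErbB2 and -0.42 in normal fibroblasts, and *Bmp1*, the main procollagen C-proteinase, by -0.08 and -0.34. None of the 4 cross-linking genes was past 2-fold in an Ets2 comparison, where 2.08% (ErbB2) and 0.978% (normal) of all genes were. For so few genes a count of 0 is what the background gives. *Lox*, lysyl oxidase, differed by -0.14 in ErbB2 and -0.07 in normal fibroblasts, and *Loxl1*, its relative, by -0.54 and -0.63. None of the 9 collagen receptors was past 2-fold either, which is again what the background gives. *Itgb1*, the integrin beta chain that pairs with collagen-binding alpha chains, differed by -0.0014 and -0.08, and *Mrc2*, an endocytic collagen receptor, by -0.04 and -0.62.

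Of these 7 lists, collagen breakdown had the largest share past 2-fold without *Ets2* in ErbB2 fibroblasts, 3 of 7 genes (1.74% of all genes were past 2-fold lower there), all lower and all under 6 in the *Ets2* null cells. *Mmp13*, an interstitial collagenase, was at 5.79 in *Ets2* null and 8.44 in *Ets2* ErbB2 fibroblasts (difference -2.65), and at 5.56 in *Ets2* null and 5.42 in *Ets2* normal fibroblasts. *Mmp8*, the collagenase of neutrophils, was at 4.45 and 6.29 in the ErbB2 pair, *Ets2* null first, and *Mmp9*, a gelatinase, at 5.11 and 6.15. ErbB2 fibroblasts with *Ets2* were the highest array for all 3 genes, as they were for the summed myeloid markers (14995, against 6215 in ErbB2 *Ets2* null fibroblasts); the part of myeloid cells was not tested. *Mmp2* and *Mmp14*, the stromal gelatinase and its membrane-bound activator, differed by -0.28 and 0.06 in ErbB2 fibroblasts and by -0.32 and -0.59 in normal fibroblasts.

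Basement membrane partners moved in different directions. *Lama1*, a laminin alpha chain, was at 7.54 in *Ets2* null and 6.15 in *Ets2* ErbB2 fibroblasts (difference 1.39), and at 6.29 in *Ets2* null and 6.88 in *Ets2* normal fibroblasts (-0.59). *Lama3* and *Lamb3*, chains of the laminin of epithelial anchorage, were past 2-fold higher without *Ets2* in normal fibroblasts (1.64 and 2.03), where epithelial markers were also higher. *Lamb3* was also past 2-fold lower in ErbB2 fibroblasts (-1.15), at values under 6. *Nid1*, nidogen, which links laminin and type IV collagen, differed by -0.16 in ErbB2 and 0.06 in normal fibroblasts, and *Lama4*, a laminin chain of mesenchyme and vessels, by -0.22 and -0.14. Over the 13 genes 11 were below 0 in ErbB2 fibroblasts and 8 in normal fibroblasts, against 51.9% and 54.3% of all genes at 6 or more.

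Of 13 regulators of collagen genes, the TGF-beta ligands differed most. *Tgfb3* was at 9.84 in *Ets2* null and 11.96 in *Ets2* ErbB2 fibroblasts (difference -2.11, 4.33-fold), and at 11.34 in *Ets2* null and 10.90 in *Ets2* normal fibroblasts (0.45). *Tgfb2* was at 7.87 in *Ets2* null and 9.32 in *Ets2* ErbB2 fibroblasts (-1.45), and at 9.34 in *Ets2* null and 8.57 in *Ets2* normal fibroblasts (0.77). *Tgfb1* was at 8.27 and 8.68 in the ErbB2 pair, *Ets2* null first (-0.42), and at 7.88 and 8.98 in the normal pair (-1.10). *Tgfb2* and *Tgfb3* were thus lower without *Ets2* in ErbB2 fibroblasts and higher in normal fibroblasts, as the epithelial marker sums were, and *Tgfb1* was lower in both. The part of epithelial cells was not tested. *Ccn2*, a matrix protein known as a target of TGF-beta, was at 13.29 and 14.02 in *Ets2* null and *Ets2* ErbB2 fibroblasts (-0.73) and differed by 0.04 in normal fibroblasts.

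**Figure D5:**
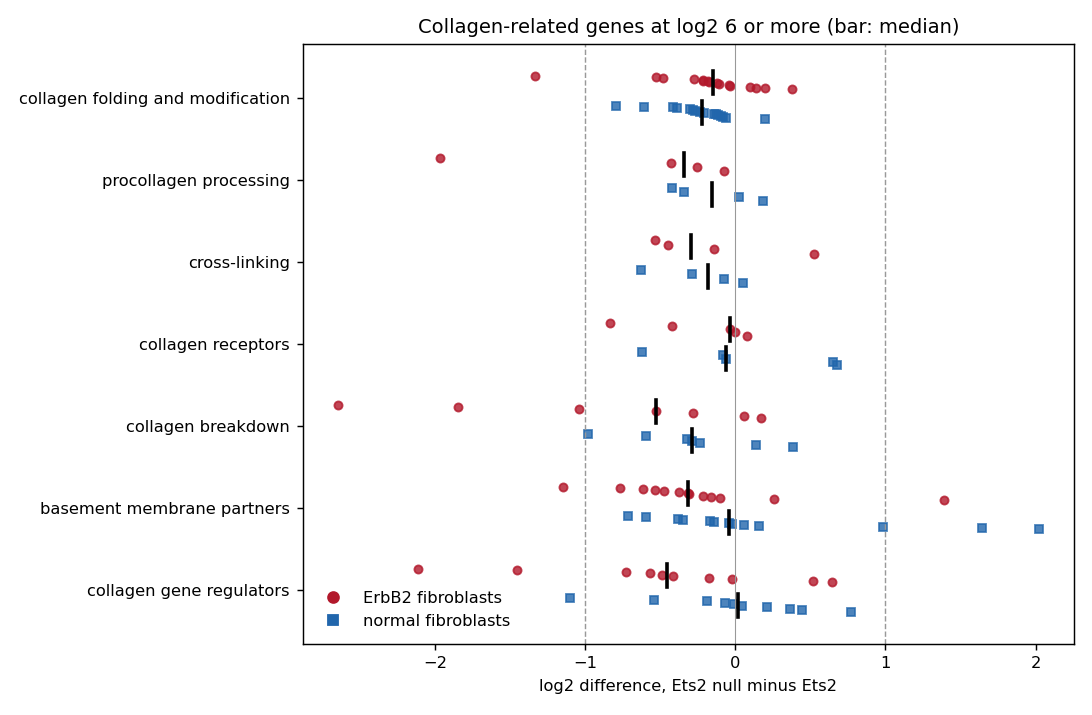
Log2 difference without *Ets2* (*Ets2* null minus *Ets2*) for genes of 7 lists at log2 6 or more on at least 1 array, with circles for ErbB2 fibroblasts, squares for normal fibroblasts, bars at the medians and dashed lines at 2-fold. The circles past 2-fold lower are *P3h2*, *Tll1*, *Mmp8*, *Mmp9*, *Mmp13*, *Lamb3*, *Tgfb2* and *Tgfb3*, the circle past 2-fold higher is *Lama1*, and the squares past 2-fold are *Tgfb1* (lower), *Lama3* and *Lamb3* (higher).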

How the data were processed

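Total RNA of second-passage mammary fibroblasts, separated by gravity from digested glands and grown in culture, was hybridised to 4 Affymetrix mouse genome arrays, 1 per genotype. The authors deposited log2 expression values made with RMA, which the submitters' processing notes name without a version or probe definitions. Because RMA brings the arrays to nearly 1 distribution, it would hide a shift of most genes together.

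Gene symbols were taken from the platform annotation. Of the probe sets, 34958 had 1 symbol, 932 had several and were not named, and 9211 were unnamed here. Differences were taken on the log2 scale for 4 comparisons: *Ets2* null minus *Ets2* in ErbB2 and in normal fibroblasts, and ErbB2 minus normal with and without *Ets2*. With 1 array per genotype a size rule of 2-fold stood in for a test, beside its share over all 18194 genes. The members, classes and lists were chosen with earlier results of these data known. Values on all arrays are given for each collagen gene past 2-fold in any comparison and at log2 6 or more, the 3 of each class with the highest means, the type IV chains at 6 or more, and *Col15a1* and *Col18a1*. From the 7 lists, genes past 2-fold in an Ets2 comparison with a value of 6 or more and the 2 with the highest means are named. *Col24a1* and *Col17a1*, and markers and other genes named beside a result, were chosen after their values were seen.

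Alternatives were the mean or another choice of probe set, centring each array on its median, a further quantile step, loess (span 0.4, in statsmodels 0.14.6), floors, limits of 1.5-fold and 4-fold, means, and types XV and XVIII counted as basement membrane. The steps were tested on simulated data. Python 3.11.15, pandas 2.3.3, numpy 2.4.6 and matplotlib 3.10.9 were used. Promoter windows came from RefSeq, GRCm38.p6. Protein sequences were not analysed here.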

Additional observations from a re-analysis of the deposited data

Results flagged for a closer look

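Genes of which the effect had opposite signs in 2 backgrounds, past 1.5-fold in both, were *Col7a1*, *Col8a1* and *Col11a1*. Without *Ets2*, *Col7a1* differed by -1.33 in ErbB2 fibroblasts and 0.65 in normal fibroblasts, and *Col8a1* by 1.45 in ErbB2 fibroblasts and -0.68 in normal fibroblasts. Taken by oncogene (ErbB2 minus normal), *Col7a1* differed by -0.93 in *Ets2* null fibroblasts and 1.05 in fibroblasts with *Ets2*, *Col8a1* by 1.21 and -0.92, and *Col11a1* by 0.80 and -0.71. Both ways of pairing use the same 4 values of a gene, and with 1 array per genotype the difference between backgrounds was not tested. Over the alternatives tried, the difference of *Col8a1* without *Ets2* ranged from 1.41 to 1.58 in ErbB2 and from -0.70 to -0.55 in normal fibroblasts, and that of *Col7a1* from -1.37 to -1.25 and from 0.64 to 0.68.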

How the results depend on the processing

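Of 286 values of counts and medians under the alternatives, 228 stayed within the limits set (within 1.5 times for a count, 0.1 for a median), and of 320 differences of the 10 collagen genes past 2-fold at log2 6 or more, 15 moved by more than the robust SD over all genes (0.21 to 0.27 by comparison) and 0 of the differences past 2-fold changed sign. With the mean of all probe sets *Col5a3* was short of 2-fold without *Ets2* in ErbB2 (-0.84) and in normal fibroblasts (-0.72). *Col11a1* was short of it in ErbB2 fibroblasts without *Ets2* with that mean (0.92) and with centring (0.99), and *Col7a1* for ErbB2 minus normal with *Ets2* with quantile normalization (0.997). The cause was not tested except where an alternative drops genes. No paired analysis was possible because each genotype has 1 array. The differences are those of the report, with comparisons named in the same way.

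Restricted to genes at log2 6 or more, which drops members, the median over all collagens was -0.23 without *Ets2* in ErbB2 and -0.29 in normal fibroblasts, and 0.25 for ErbB2 minus normal without *Ets2*. The count higher without *Ets2* in normal fibroblasts was 0. Class medians without *Ets2* in ErbB2 fibroblasts were -0.13 (fibrillar), -0.75 (basement membrane), -0.10 (FACIT) and -0.34 (other), and in normal fibroblasts -0.37 (other). For ErbB2 minus normal with *Ets2* they were -0.38 (basement membrane), -0.076 (FACIT) and 0.60 (other), and without *Ets2* -1.20 (basement membrane) and 0.38 (other). Above the olfactory receptor background, that count was also 0, the collagen median in normal fibroblasts without *Ets2* was -0.25, and class medians were -0.44 (basement membrane) and -0.32 (other) in ErbB2 fibroblasts without *Ets2*, 0.25 (basement membrane) and -0.13 (other) in normal fibroblasts without it, -0.33 (basement membrane), -0.19 (FACIT) and 0.58 (other) for ErbB2 minus normal with *Ets2*, and -0.94 (basement membrane) and 0.10 (FACIT) without it.

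At 1.5-fold, 3 collagens were higher and 7 lower without *Ets2* in normal fibroblasts (8 higher and 5 lower for ErbB2 minus normal without *Ets2*, 7 higher and 3 lower with it). In the Ets2 comparisons 2 collagens, *Col7a1* and *Col8a1*, were past it in opposite directions. The share of all genes that were so was not counted. At 4-fold each count of higher or lower collagens was 0, where 0.104% to 0.357% of all genes passed it. With the mean of all probe sets, the class medians without *Ets2* in normal fibroblasts were -0.036 (FACIT) and -0.061 (other), that of basement membrane for ErbB2 minus normal without *Ets2* was -0.41, and 1 collagen was higher for ErbB2 minus normal with *Ets2*. With centring, 1 collagen was higher without *Ets2* in ErbB2 fibroblasts. With quantile normalization, 0 were higher without *Ets2* in normal fibroblasts and 1 higher for ErbB2 minus normal with *Ets2*. With loess, 0 were higher without *Ets2* in normal fibroblasts, and the basement membrane median in ErbB2 fibroblasts without *Ets2* was -0.18. Means in place of medians gave -0.22 (basement membrane, ErbB2 without *Ets2*), -0.024 (other, normal without *Ets2*), and 0.45 (fibrillar) and 0.15 (FACIT) for ErbB2 minus normal without *Ets2*. With types XV and XVIII counted as basement membrane, that class turned to 0.0195, from -0.15, for ErbB2 minus normal with *Ets2*, and was -0.23 without *Ets2* and -0.44 in ErbB2 fibroblasts without *Ets2*, where the other class was -0.068. With the dimmest probe set at a mean of 6 or more, chosen after seeing the data, the fibrillar median in ErbB2 fibroblasts without *Ets2* was -0.12 and the basement membrane median for ErbB2 minus normal without *Ets2* was -0.43. Values under log2 6 and the number of arrays limit what these data can show.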
